A study of Mus musculus with 4 samples.

Results

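The interferon response and the MHC class I presentation machinery were followed as 35 genes of the 28693 listed in the count matrices, chosen by symbol and summed per library in each lineage of the mouse mammary gland. The 35 genes fell into 17 type I-like members (*Ifit1*, *Ifit2*, *Ifit3*, *Isg15*, *Irf7*, *Irf9*, *Stat2*, *Bst2*, *Ifi27l2a*, *Ifi35*, *Ifih1*, *Oasl2*, *Oas1a*, *Usp18*, *Rsad2*, *Xaf1* and *Rtp4*), 8 gamma-like members (*Irf1*, *Iigp1*, *Igtp*, *Irgm1*, *Gbp2*, *Gbp3*, *Gbp7* and *Ido1*) and 10 class I presentation members (*Psmb8*, *Psmb9*, *Psmb10*, *Tap1*, *Tap2*, *Tapbp*, *B2m*, *H2-K1*, *H2-D1* and *Nlrc5*), and all 35 were present in the matrices. Single-cell RNA-sequencing libraries (10x Genomics, 3' chemistry) had been prepared from live-sorted cells of the mammary glands of 4 adult nulliparous mice, 1 library per mouse, after removal of the lymph nodes of the fourth gland pair. Both CTL mice (labelled WT) carried the floxed alleles Lats1f/f and Lats2f/f, of genes that encode kinases of the Hippo pathway, and 1 copy of the Cre reporter R26-lsl-EYFP, and they lacked Cre. The 2 LATS1/2-KO mice carried the same floxed alleles with Krt8-CreERT2, a tamoxifen-dependent Cre under the promoter of a luminal keratin, and were heterozygous (LATS1/2-KO 1) or homozygous (LATS1/2-KO 2) for the EYFP reporter. All 4 mice, the CTL mice included, received 2 mg tamoxifen on each of 5 days and were collected 7 days after the last dose. The deletion was therefore directed at Krt8-expressing cells, so that the fibroblasts, endothelial cells, macrophages and lymphocytes of the LATS1/2-KO glands were neighbours of deleted cells, and the luminal cells of these glands were a mixture of cells with and without Cre activity.

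Type I interferons (alpha and beta) signal through the IFNAR receptor and a complex that holds STAT2 and IRF9 and binds the interferon-stimulated response element, and they induce antiviral genes such as those of the Ifit, Oas and Rsad2 families. Interferon gamma, which is made mainly by T cells and NK cells, acts through a separate receptor and the gamma-activated sequence, and it induces *Irf1*, the guanylate-binding proteins and the immunity-related GTPases. Both interferons raise the class I pathway, in which the immunoproteasome (PSMB8, PSMB9 and PSMB10) cuts proteins into peptides, the TAP transporter (TAP1 and TAP2) carries them into the endoplasmic reticulum, tapasin (TAPBP) assists their loading, and a heavy chain (H2-K1 or H2-D1) with beta-2 microglobulin (B2M) shows them to CD8 T cells. NLRC5 is the transactivator of class I genes. The lists name the interferon a gene is best known to follow, and most members respond to both.

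After removal of low-quality barcodes, 18200 of 20324 cells were kept, from 3515 to 5272 per library, with 38792520 to 46810771 unique molecular identifiers (UMIs) per library and a median of 5962.5 to 10141 UMIs per cell. Cells were assigned to lineages by marker genes that included no member, which left 2.08% and 1.17% of CTL cells and 5.00% and 9.05% of LATS1/2-KO cells without a lineage. Luminal cells numbered 4370 and 3192 in CTL and 3158 and 2848 in LATS1/2-KO, basal cells 178, 157, 328 and 422, fibroblasts 45, 21, 251 and 808, endothelial cells 40, 34, 233 and 236, lymphocytes 152, 61, 16 and 49, and macrophages 6, 4, 235 and 359. With 6 and 4 macrophages in CTL, no test of LATS1/2-KO against CTL was made in macrophages. All 10 basal, 12 luminal, 12 fibroblast, 12 endothelial, 12 macrophage and 12 lymphocyte markers had counts in the cells gated for them. The gate was built on these same markers, so this does not check the lineages. *EYFP*, the reporter of Cre activity, had 0.290 and 0.340 CPM in CTL and 93.3 and 143 CPM in LATS1/2-KO in luminal cells. *Lats1* had 24.0 and 24.0 CPM in CTL and 15.3 and 16.5 CPM in LATS1/2-KO and *Lats2* had 13.8 and 15.1 CPM in CTL and 27.8 and 30.1 CPM in LATS1/2-KO in luminal cells, and as these are counts of 3' tags whose position relative to the deleted exons is not given in the sources used here, they do not check the deletion. A total of 43 cell barcodes occurred in more than 1 library, 16 to 27 per library.

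Sequences upstream of the members the results turn on are shown first, because the interferon-stimulated response element is the DNA feature that the type I response acts through. The 250 bases before the RefSeq transcription start (GRCm38.p6) were searched on both strands, overlaps allowed, for 3 motifs. These were the core of the response element, which is GAAA, any 2 bases and again GAAA, the form GAANNGAAA, shorter by 1 base, and TTCNNNGAA, the gamma-activated sequence. A start was given for 28 of the 35 members, and *Tap2*, *Ifi27l2a*, *Usp18*, *Iigp1*, *Nlrc5*, *Rtp4* and *Ido1* had none. The core was present in 13 of the 28 members. It was found in 7 of 14 type I-like, 5 of 6 gamma-like and 1 of 8 class I presentation members, and in 936 of the 27025 promoters of all genes (3.46%). The form GAANNGAAA was present in 6 of 28 members (7.30% of all promoters) and TTCNNNGAA in 7 of 28 (8.13% of all promoters). In the stretches below, each printed on the coding strand of its gene from 5' to 3', capitals mark the matches, so that a match on the other strand reads TTTC.
*Isg15* (chr4:156200855-156200916, - strand): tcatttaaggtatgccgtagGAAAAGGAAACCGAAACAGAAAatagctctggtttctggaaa
*Ifit1* (chr19:34640765-34640833, + strand): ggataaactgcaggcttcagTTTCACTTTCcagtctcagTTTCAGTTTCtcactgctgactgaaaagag
*Rsad2* (chr12:26456543-26456592, - strand): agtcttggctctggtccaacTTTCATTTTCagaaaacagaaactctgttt
*Bst2* (chr8:71537567-71537622, - strand): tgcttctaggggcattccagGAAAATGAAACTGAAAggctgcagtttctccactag
*B2m* (chr2:122147528-122147577, + strand): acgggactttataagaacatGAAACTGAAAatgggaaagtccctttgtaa
*H2-K1* (chr17:34000419-34000447, - strand): atctccacagTTTCACTTCtgcacctaac
*H2-D1* (chr17:35262934-35262962, + strand): atctcctcagTTTCACTTCtgcacctaac
*Isg15* held 3 overlapping matches, and *Ifit1* and *Bst2* held 2 each. *B2m* was the 1 class I member with the full core. The capitals in *H2-K1* and *H2-D1* mark the form GAANNGAAA on the other strand, and the 29-base stretches of these genes matched at 28 positions. The *H2-D1* stretch lay within an exon of a longer annotated transcript. *Psmb9* and *Tap1* start in opposite directions 225 bases apart on chromosome 17, and the bases between their starts held none of the 3 motifs. Of the 10 class I members, 7 lie on chromosome 17, where in order of position *Tapbp*, *H2-K1*, *Psmb9*, *Tap1*, *Psmb8*, *Tap2* and *H2-D1* follow each other between positions 33915899 and 35267499 (GRCm38). A match is a match of letters and not a measured binding site.

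In luminal cells the type I-like members rose and the class I presentation members fell in LATS1/2-KO. Values below are counts per 1000000 UMIs (CPM) of the summed cells of a lineage, in which more cells expressing a gene and more RNA per cell cannot be told apart. Fold changes are from a fit scaled by the trimmed mean of M-values (TMM), so that they can depart from the ratio of the CPM values. The 17 type I-like members together had 471 and 469 summed CPM in CTL and 948 and 1250.1 in LATS1/2-KO, and the CTL and LATS1/2-KO libraries did not overlap. By edgeR's quasi-likelihood test with Benjamini-Hochberg adjustment over all genes, 28 of the 35 members passed an adjusted p of 0.05, 15 higher and 13 lower in LATS1/2-KO, in a comparison in which 59.4% of all 14512 genes tested passed (30.8% higher and 28.6% lower). Of the type I-like members, 13 of 17 were higher and 3 were lower, with a median log2 fold change of 1.79 beside 0.00 over all genes tested. DESeq2 called 28 members, beside 7713 of all 14512 genes tested. The CTL and LATS1/2-KO libraries did not overlap for 26 of the 28 called members, *Irf9* and *Ifih1* being the exceptions. The same share was not counted over all called genes. Called genes are those whose groups differ, so this count adds no support beyond the calls.

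Among the genes of cell-intrinsic antiviral defence, *Isg15*, a ubiquitin-like protein conjugated to newly made proteins, had 35.8 and 41.1 CPM in CTL and 126 and 188 CPM in LATS1/2-KO (log2 fold change 1.81 ± 0.19 SE, adjusted p = 0.0012). *Ifit1*, which binds viral RNA that lacks a methylated cap, had 5.48 and 3.66 CPM in CTL and 27.8 and 60.0 CPM in LATS1/2-KO (log2 fold change 3.04 ± 0.41 SE, adjusted p = 0.0024). *Rsad2*, which encodes viperin, had 5.33 and 6.50 CPM in CTL and 31.6 and 53.3 CPM in LATS1/2-KO (log2 fold change 2.63 ± 0.27 SE, adjusted p = 0.001). In each of these the lower LATS1/2-KO library lay above both CTL libraries, and LATS1/2-KO 2 lay above LATS1/2-KO 1. *Ifit2* and *Ifit3* rose by 2.07 and 3.75 on the log2 scale, and *Oas1a* and *Oasl2*, of the family of oligoadenylate synthetases, by 2.42 and 1.11. *Ifi27l2a*, a mitochondrial protein gene of the type I response, had 2.38 and 1.31 CPM in CTL and 85.2 and 153 CPM in LATS1/2-KO (log2 fold change 5.78 ± 0.42 SE, adjusted p = 0.00044). Its level in CTL was low, and free RNA alone would give 9.92 and 16.3 CPM in LATS1/2-KO. *Ifi27l2a*, *Oas1a* and *Ifit1* have near-identical neighbours in the genome, so that their counts are uncertain as to copy.

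The regulators moved unevenly. *Irf7*, the transcription factor that amplifies type I interferon production, had 13.0 and 13.5 CPM in CTL and 61.0 and 97.1 CPM in LATS1/2-KO (log2 fold change 2.36 ± 0.22 SE, adjusted p = 0.00079), and *Usp18*, which removes ISG15 and dampens IFNAR signalling, rose by 1.79 on the log2 scale. *Stat2* was not called (log2 fold change 0.30, adjusted p = 0.174). *Irf9*, its partner in the response factor, fell by 0.38 on the log2 scale. *Ifih1*, a sensor of double-stranded RNA, fell by 0.39 and *Ifi35* had 76.5 and 56.5 CPM in CTL and 43.5 and 45.0 CPM in LATS1/2-KO (log2 fold change -0.80 ± 0.16 SE, adjusted p = 0.0079). *Bst2*, which encodes the membrane tether tetherin, had 196 and 227 CPM in CTL and 358 and 381 CPM in LATS1/2-KO (log2 fold change 0.59 ± 0.09 SE, adjusted p = 0.0039). *Xaf1* and *Rtp4* rose by 1.43 and 1.30 on the log2 scale. The calls of *Irf9* and *Ifih1* were lost in 3 and 2 of the 4 leave-one-out fits.

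**Figure D1:**
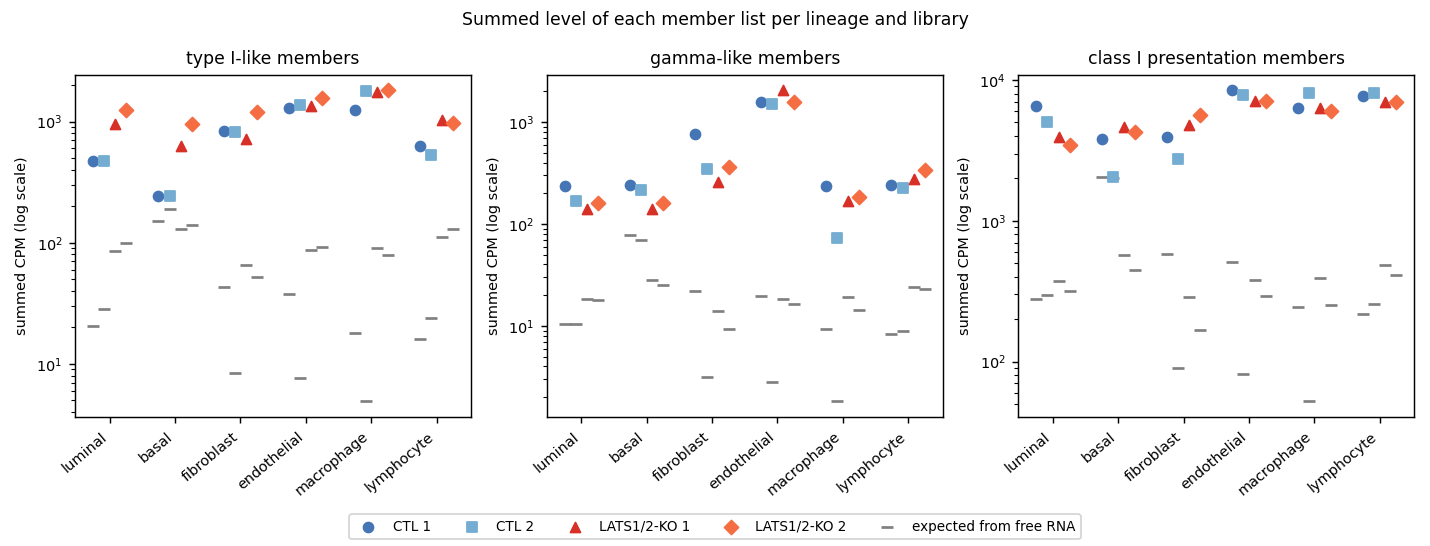
Summed CPM (log axis) of the type I-like, gamma-like and class I presentation members in 6 lineages, 1 point per library, with grey ticks at the level that free RNA alone would give. The luminal and basal points of the type I-like panel are higher in both LATS1/2-KO libraries than in both CTL libraries, the gamma-like panel is highest in endothelial cells, and CTL basal cells lie near their grey ticks in the type I-like and class I panels.

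The class I presentation members together had 6484 and 5041 summed CPM in CTL and 3914 and 3476 in LATS1/2-KO in luminal cells, without overlap. By list, 8 of the 10 were lower and 1 was higher, with a median log2 fold change of -0.98. The immunoproteasome subunits fell together, *Psmb9* from 108 and 91.0 CPM in CTL to 25.7 and 20.2 CPM in LATS1/2-KO (log2 fold change -2.33 ± 0.16 SE, adjusted p = 0.00039), *Psmb8* by 0.95 and *Psmb10* by 1.02 on the log2 scale. Of the peptide transporter, *Tap2* had 165 and 142 CPM in CTL and 58.2 and 63.4 CPM in LATS1/2-KO (log2 fold change -1.55 ± 0.11 SE, adjusted p = 0.00038), whereas *Tap1* had 45.3 and 32.0 CPM in CTL and 41.8 and 49.5 CPM in LATS1/2-KO and was not called (log2 fold change 0.02, 95% interval -0.44 to 0.49). The CTL and LATS1/2-KO libraries were separate for *Tap2* and overlapped for *Tap1*. *H2-K1*, a classical heavy chain, had 2643 and 1892 CPM in CTL and 1184 and 1063 CPM in LATS1/2-KO (log2 fold change -1.23 ± 0.19 SE, adjusted p = 0.0037), *H2-D1* fell by 0.59 and *B2m* by 0.66 on the log2 scale. The heavy chains share reads with near-identical copies of the H2 family, so that their counts are uncertain as to copy. *Nlrc5*, at 1.82 to 4.90 CPM, fell by 1.27, and *Tapbp* had 106 and 114 CPM in CTL and 147 and 177 CPM in LATS1/2-KO (log2 fold change 0.34 ± 0.10 SE, adjusted p = 0.035), the 1 class I member that rose. The calls of *B2m*, *H2-D1*, *Tapbp* and *Nlrc5* were lost without CTL 1 and without LATS1/2-KO 2.

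The gamma-like members had 236 and 166 summed CPM in CTL and 139.8 and 160.3 in LATS1/2-KO in luminal cells, where the LATS1/2-KO libraries lay below both CTL libraries and the CTL libraries differed from each other by more than CTL 2 did from LATS1/2-KO. Of the 8 members, 1 was higher and 2 were lower, with a median log2 fold change of -0.0048. *Ido1*, which degrades tryptophan, had 28.8 and 30.6 CPM in CTL and 0.218 and 0.0607 CPM in LATS1/2-KO (log2 fold change -7.92 ± 0.30 SE, adjusted p = 0.00012), the latter from 7 and 2 UMIs, and *Irf1*, the first-wave transcription factor of interferon gamma, had 70.4 and 59.2 CPM in CTL and 33.1 and 29.6 CPM in LATS1/2-KO (log2 fold change -1.26 ± 0.12 SE, adjusted p = 0.0009). *Gbp3* rose from 2.79 and 2.84 to 10.7 and 14.2 CPM (log2 fold change 1.93 ± 0.18 SE, adjusted p = 0.00083). The other 5 were not called, among them *Iigp1* with 62.9 and 22.6 CPM in CTL and 23.4 and 24.0 CPM in LATS1/2-KO, where CTL 1 stood above the other libraries.

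Markers of other lineages, stress genes and free RNA moved with the condition in the luminal gate, and their part in these results was not tested. All 10 basal markers were detected there and had 36.9 and 24.7 summed CPM in CTL and 1816 and 1462 in LATS1/2-KO. The 12 macrophage markers, none at 0 in all libraries, had 13.3 and 18.2 summed CPM in CTL and 69.3 and 75.3 in LATS1/2-KO, and the 12 immediate early and heat shock genes of the dissociation stress list 16849 and 16866 summed CPM in CTL and 8843 and 9486 in LATS1/2-KO. The share of free RNA, that is, RNA taken up from the suspension, was estimated from 3 collagen genes against the profile of all kept cells of the library and was 4.28% and 5.95% in CTL and 9.04% and 8.0% in LATS1/2-KO. All 35 members lay more than 2-fold above the free RNA level in both libraries of each group, and subtraction of the free RNA left 28 members called. Because most cells were luminal, the assumed free RNA profile resembled the luminal profile by construction.

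**Figure D2:**
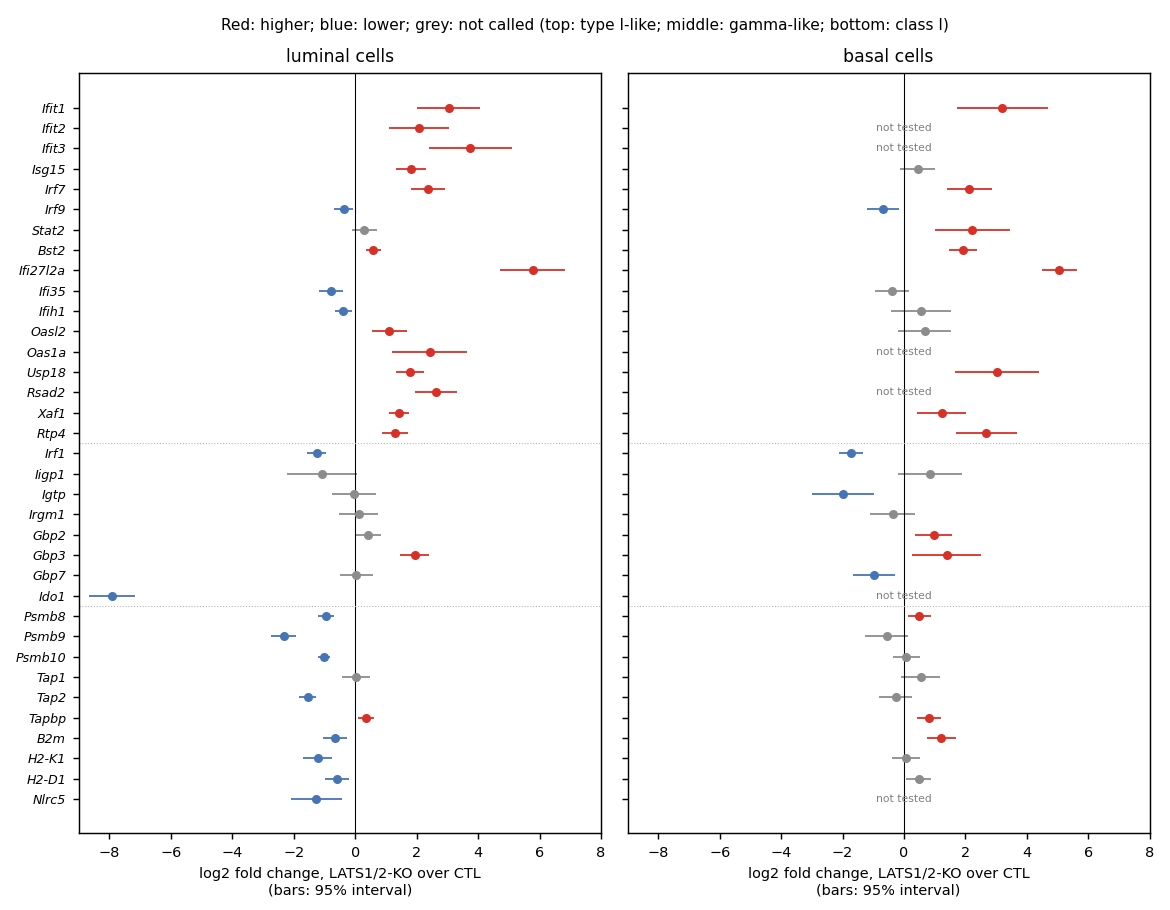
Log2 fold change of LATS1/2-KO over CTL for each member in luminal and basal cells, with 95% intervals of the fit, in red where called higher, blue where called lower and grey where not called. In luminal cells 13 of the 17 type I-like points are red and 8 of the 10 class I points are blue, whereas in basal cells 3 of the 9 class I members tested are red and none is blue.

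Luminal cells comprise estrogen receptor-negative (ER-) and ER-positive (ER+) cells, and their proportion differed between the groups, with 1300 and 962 ER+ cells in CTL and 673 and 300 in LATS1/2-KO against 3065, 2227, 2219 and 2296 ER- cells. The type I-like members had 367 and 338 summed CPM in CTL and 998 and 1319.5 in LATS1/2-KO in ER- cells. In ER+ cells they had 643 and 645 summed CPM in CTL and 727 and 822 in LATS1/2-KO. In ER- cells 14 of 17 were higher and 2 lower (32.6% and 30% of all genes, 62.6% in all). In ER+ cells 10 were higher and 1 lower (21.7% and 19.9%, 41.6% in all). The difference between the subsets was not tested. *Isg15* had 39.5 and 43.4 CPM in CTL and 138 and 202 CPM in LATS1/2-KO in ER- cells (log2 fold change 1.70, adjusted p = 0.0002). In ER+ cells *Isg15* had 29.7 and 38.0 CPM in CTL and 79.2 and 93.1 CPM in LATS1/2-KO (log2 fold change 1.25, adjusted p = 0.0026). *Bst2* had 109 and 106 CPM in CTL and 353 and 373 CPM in LATS1/2-KO in ER- cells (log2 fold change 1.42 ± 0.08 SE, adjusted p = 2.0e-05). In ER+ cells *Bst2* had 339 and 389.9 CPM in CTL and 358 and 396 CPM in LATS1/2-KO (log2 fold change -0.05, 95% interval -0.33 to 0.23, adjusted p = 0.755). The *Bst2* level of ER- cells in LATS1/2-KO lay within the range of the ER+ cells, which did not separate by group. *Ifi27l2a* reached 108 and 176 CPM in LATS1/2-KO ER- cells and 12.8 and 18.2 CPM in ER+ cells, where it was called higher than in CTL although free RNA alone would give 10.1 and 14.3 CPM.

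*Ido1* was mainly found in ER+ cells in CTL, with 71.1 and 65.3 CPM in ER+ and 3.11 and 4.62 CPM in ER- cells. In LATS1/2-KO it had 0.890 and 0.268 CPM in ER+ cells (log2 fold change -6.75 ± 0.28 SE, adjusted p = 0.00015) and 0.0416 and 0.0361 CPM, 1 UMI each, in ER- cells, so that its fall was present within each subset. Class I presentation members fell within both subsets, 7 of 10 in ER- cells, where none rose, and 6 of 10 in ER+ cells, where *Tapbp* rose. *Psmb9* fell by 2.00 and 2.12 and *Tap2* by 1.43 and 1.54 on the log2 scale in ER- and ER+ cells. *B2m* fell in ER+ cells (log2 fold change -0.62, adjusted p = 0.017) and was not called in ER- cells (log2 fold change -0.40, adjusted p = 0.146).

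**Figure D3:**
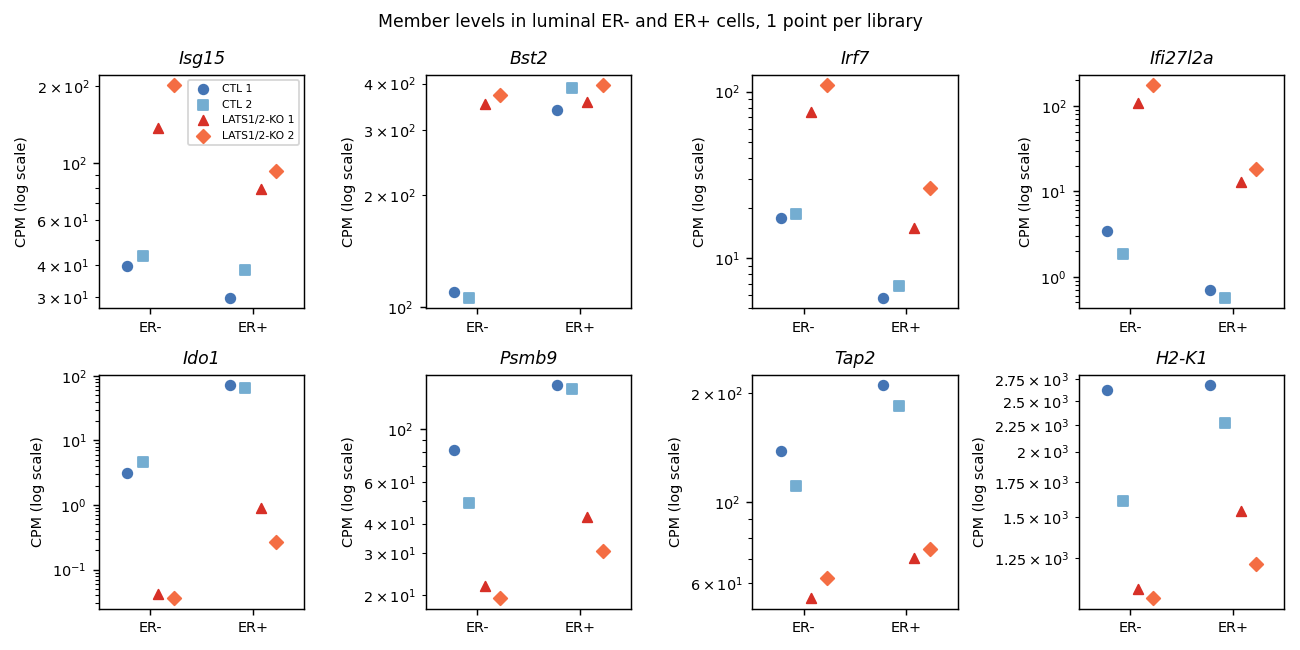
CPM (log axis) of 8 members in luminal ER- and ER+ cells, 1 point per library. *Isg15*, *Irf7* and *Ifi27l2a* are higher and *Ido1*, *Psmb9* and *Tap2* lower in both LATS1/2-KO libraries of either subset, and the 4 *Bst2* points of ER+ cells lie between 339 and 396 CPM.

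The EYFP reporter allowed luminal cells with and without detected Cre activity to be compared within the same LATS1/2-KO mouse. EYFP transcripts were found in 710 of 3158 luminal cells of LATS1/2-KO 1 and 840 of 2848 of LATS1/2-KO 2 (22.5% and 29.5%), against 0.297% and 0.439% of CTL luminal cells and 1.29% and 5.08% of the endothelial cells of the LATS1/2-KO libraries, which should lack Cre and had a median of 4149 and 4001 UMIs against 8362 and 9126.5 in luminal cells. EYFP+ cells carried more UMIs (median 13596 and 15146.5) than EYFP- cells (7303.5 and 7318). Of 34 members tested with the mouse as block, 6 were higher and 12 were lower in EYFP+ cells, in a comparison in which 39.6% of all genes passed (19.4% higher and 20.3% lower). Of the 12 dissociation stress genes, 1 was higher and 10 were lower in EYFP+ cells, with a median log2 difference of -0.59. Their part in the member results was not tested. With every cell thinned to 2000 UMIs, where EYFP+ cells numbered 318 and 381, 6 members were called, 1 higher and 5 lower, beside 1305 of 10582 genes in all.

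The type I-like members split, with 5 higher and 5 lower. *Bst2* in EYFP+ against EYFP- cells had 442 against 316 CPM in LATS1/2-KO 1 and 467 against 316 CPM in LATS1/2-KO 2 (log2 fold change 0.52 ± 0.05 SE, adjusted p = 3.4e-05). *Isg15* had 153 against 112 CPM in LATS1/2-KO 1 and 197 against 180.3 CPM in LATS1/2-KO 2 (log2 fold change 0.28 ± 0.08 SE, adjusted p = 0.017). *Irf7* had 47.6 against 67.6 CPM in LATS1/2-KO 1 and 74.7 against 114 CPM in LATS1/2-KO 2 (log2 fold change -0.57 ± 0.07 SE, adjusted p = 0.00015), lower in EYFP+ cells of both mice. *Ifi27l2a* and *Rtp4* were also lower (log2 differences -0.57 and -0.53). For *Bst2*, *Isg15*, *Irf7*, *Ifi27l2a* and *Rtp4* both kinds of cell of the LATS1/2-KO mice lay above both CTL luminal values, which were for *Irf7* 13.0 and 13.5 CPM in CTL. Of the gamma-like members, *Iigp1*, a GTPase that attacks the membranes around intracellular parasites, had 10.8 against 29.7 CPM in LATS1/2-KO 1 and 14.1 against 31.4 CPM in LATS1/2-KO 2 (log2 fold change -1.30 ± 0.11 SE, adjusted p = 1.1e-05). Of the class I members, 5 were lower and 1 was higher in EYFP+ cells. The log2 difference was -0.36 for *H2-K1*, -0.25 for *H2-D1*, -0.47 for *Psmb9*, -0.18 for *B2m* and 0.33 for *Tapbp*. Cells without a detected EYFP transcript can still have had Cre activity at this depth.

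The cells gated as basal, by markers of the contractile layer around the ducts, shared the rise of the type I-like members but not the fall of class I. *EYFP* had 1.57 and 3.07 CPM in CTL and 5.79 and 16.2 CPM in LATS1/2-KO in this gate, from 1, 2, 11 and 42 UMIs. Whether the LATS1/2-KO cells of the gate came from that layer was not tested. The type I-like members had 241 and 241 summed CPM in CTL and 626 and 946 in LATS1/2-KO, without overlap. Of 29 members tested, 13 were higher and 4 lower in LATS1/2-KO (17.3% and 16.9% of all 9005 genes tested, 34.2% in all). Of the type I-like members, 8 of 13 were higher and 1 was lower, with a median log2 fold change of 1.92 beside -0.0019 over all genes. *Ifi27l2a* had 6.30 and 9.22 CPM in CTL and 237 and 324 CPM in LATS1/2-KO (log2 fold change 5.05 ± 0.28 SE, adjusted p = 1.0e-11). *Irf7* had 7.87 and 12.3 CPM in CTL and 37.9 and 57.1 CPM in LATS1/2-KO (log2 fold change 2.13 ± 0.35 SE, adjusted p = 7.9e-05). *Bst2* had 34.6 and 27.7 CPM in CTL and 114 and 141 CPM in LATS1/2-KO (log2 fold change 1.92 ± 0.22 SE, adjusted p = 7.2e-07). For each of the 3 genes both LATS1/2-KO libraries stood above both CTL libraries. *Ifit1* had 3.15 and 4.61 CPM in CTL and 14.2 and 62.1 CPM in LATS1/2-KO (log2 fold change 3.20 ± 0.71 SE, adjusted p = 0.0014), whereas *Isg15* had 56.7 and 67.6 CPM in CTL and 54.7 and 126 CPM in LATS1/2-KO, an overlap between the groups, and was not called (adjusted p = 0.238). *Usp18* rose by 3.03, *Rtp4* by 2.68, *Stat2* by 2.23 and *Xaf1* by 1.23 on the log2 scale, and *Irf9* fell by 0.67.

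The gamma-like list had 239 and 215 summed CPM in CTL and 141 and 159.8 in LATS1/2-KO in basal cells, with 2 of 7 members higher and 3 lower. *Irf1* had 137 and 126 CPM in CTL and 38.9 and 46.7 CPM in LATS1/2-KO (log2 fold change -1.72 ± 0.19 SE, adjusted p = 4.0e-07), and *Igtp* and *Gbp7* fell by 1.98 and 0.97 on the log2 scale, while *Gbp2* and *Gbp3*, neighbours of *Gbp7* on chromosome 3, rose by 0.96 and 1.39. The class I members had 3784 and 2045 summed CPM in CTL and 4642 and 4281 in LATS1/2-KO, with 3 of 9 higher and none lower and a median of 0.47. *B2m* had 678 and 327 CPM in CTL and 1345 and 1200.1 CPM in LATS1/2-KO (log2 fold change 1.22 ± 0.22 SE, adjusted p = 0.00024), *Tapbp* rose by 0.82 and *Psmb8* by 0.50 on the log2 scale. *H2-K1* and *H2-D1* had log2 fold changes of 0.07 and 0.47 and were not called (adjusted p = 0.85 and 0.07).

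The test of the difference between the effects in basal and luminal cells called 14 of 35 members, 11 with a more positive effect in basal cells and 3 with a more negative one (11.8% and 7.06% of all genes, 18.9% in all). Of the 10 class I members, 8 were among the 11, for example *B2m* (difference 2.12, adjusted p = 4.2e-05), *H2-K1* (1.54, adjusted p = 8.2e-05) and *Psmb9* (1.98, adjusted p = 0.002), with a median difference of 1.5 beside 0.12 over all genes. The CTL basal sums rested on 178 and 157 cells, and the estimate of free RNA in them depended on the genes used. From the collagen genes the free share of basal cells was 31.5% and 40.1% in CTL and 13.7% and 11.2% in LATS1/2-KO, and at that share free RNA alone would give 2032 and 2015 summed CPM beside the measured 3784 and 2045 summed CPM of class I in CTL. From 6 luminal genes the share was 9.81%, 7.52%, 14.5% and 13.1%. No class I member and 5 of 17 type I-like members lay more than 2-fold above the collagen-based free level in both CTL libraries, against 10 and 15 in LATS1/2-KO. After subtraction, 11 members were called with the collagen-based share and 16 with the luminal-based share. Without LATS1/2-KO 2 the count was 8, with DESeq2 it was also 8, and without 1 of the other libraries it ranged from 12 to 19. Of other markers, the 12 luminal markers had 2596 and 1818 summed CPM in CTL and 4129.8 and 3189 in LATS1/2-KO in the basal gate, and the 12 macrophage markers had 40.9 and 35.3 summed CPM in CTL and 86.3 and 95 in LATS1/2-KO, with none of either list at 0 in all libraries. The 12 lymphocyte markers, 5 of them at 0 in all libraries, had 17.3 and 12.3 summed CPM in CTL and 56.3 and 64.5 in LATS1/2-KO, and the 12 fibroblast markers 343 and 370 in CTL and 539 and 653 in LATS1/2-KO. The stress list had 18219 and 17115 summed CPM in CTL and 12326 and 13266 in LATS1/2-KO. The part of these markers in the basal results was not tested.

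In fibroblasts 1 of 32 members was called in LATS1/2-KO, where 3.1% of all 7575 genes passed (1.44% higher and 1.66% lower). *Irf7* had 21.2 and 22.9 CPM in CTL and 87.4 and 121 CPM in LATS1/2-KO (log2 fold change 2.37 ± 0.46 SE, adjusted p = 0.04), and both LATS1/2-KO libraries lay above both CTL libraries. The count was 0 without CTL 1, 6 without LATS1/2-KO 1 and 4 without LATS1/2-KO 2, and the *Irf7* call was lost without either CTL library. The type I-like members had 838 and 825 summed CPM in CTL and 714 and 1202 in LATS1/2-KO. The gamma-like members had 769 and 344 summed CPM in CTL and 256 and 359 in LATS1/2-KO and the class I members 3934 and 2727 summed CPM in CTL and 4787 and 5675 in LATS1/2-KO. The groups overlapped in the type I-like and gamma-like sums and not in the class I sums. The CTL fibroblast sums came from 45 and 21 cells. In the fibroblast gate the 12 macrophage markers had 26.5 and 34.4 summed CPM in CTL and 97.9 and 105 in LATS1/2-KO, and the 10 basal markers 47.7 and 138 in CTL and 468 and 272 in LATS1/2-KO, with none of either list at 0 in all libraries. The stress list had 19565 and 21818 summed CPM in CTL and 13805 and 17355 in LATS1/2-KO there. Their part in the fibroblast results was not tested. The effect differed from that in luminal cells for 4 of 35 members (0.88% of all genes more positive, 1.66% more negative, 2.54% in all, median difference over all genes 0.39), more positive in fibroblasts for *B2m* and *H2-K1* and more negative for *Isg15* and *Ifi27l2a*.

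Endothelial cells had the highest gamma-like sum of the 6 lineages in each library, and 5 of 33 members passed the test in LATS1/2-KO. The gamma-like members had 1557 and 1508 summed CPM in CTL and 2052 and 1565 in LATS1/2-KO. The type I-like members had 1296 and 1380.4 summed CPM in CTL and 1338 and 1569.7 in LATS1/2-KO and the class I members 8467 and 7827 summed CPM in CTL and 7071 and 7039 in LATS1/2-KO. The groups overlapped in the type I-like sums alone. Of 33 members, 3 were higher and 2 lower in LATS1/2-KO (3.81% and 4.22% of all 6820 genes, 8.04% in all), and scaling by the DESeq2-type size factors (RLE) changed the split to 2 higher and 3 lower, with *Psmb10* called and *Usp18* not. *Gbp2*, a guanylate-binding protein, had 61.7 and 112 CPM in CTL and 390.2 and 257 CPM in LATS1/2-KO (log2 fold change 1.96 ± 0.32 SE, adjusted p = 0.0029). *Irf7* had 23.7 and 35.8 CPM in CTL and 103 and 144 CPM in LATS1/2-KO (log2 fold change 2.12 ± 0.36 SE, adjusted p = 0.0038). *Irf1* had 465 and 481 CPM in CTL and 246 and 186 CPM in LATS1/2-KO (log2 fold change -1.07 ± 0.23 SE, adjusted p = 0.013). *Psmb9* had 185 and 189 CPM in CTL and 61.9 and 87.9 CPM in LATS1/2-KO (log2 fold change -1.26 ± 0.27 SE, adjusted p = 0.014). The 2 CTL and 2 LATS1/2-KO libraries were separate in each of these. *Usp18* rose by 2.38 on the log2 scale at an adjusted p just inside the threshold (0.0497). Without CTL 1 the calls of *Usp18*, *Irf7* and *Psmb9* were lost, and without LATS1/2-KO 2 that of *Irf1*. DESeq2 called 3 members. The CTL values rested on 40 and 34 cells, and the stress list had 16824 and 23446 summed CPM in CTL and 13009.7 and 12844 in LATS1/2-KO in this gate, and the 12 macrophage markers, 1 of them at 0, had 42.7 and 20.4 summed CPM in CTL and 122 and 169.7 in LATS1/2-KO. Their part in the endothelial results was not tested. By the interaction test the effect differed from that in luminal cells for 6 of 35 members (2.33% of all genes more positive, 2.3% more negative, 4.63% in all, median difference over all genes 0.33), more negative for *Isg15*, *Ifit1* and *Ifi27l2a* and more positive for *H2-K1*, *Psmb8* and *Tap2*.

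Compared with luminal cells of the same 4 libraries, 22 of the 35 members were higher and none was lower in endothelial cells, where 14.4% of all genes were higher and 16% lower (30.4% in all). The gamma-like members led, with 7 of 8 higher and a median log2 difference of 2.87 beside -0.20 over all genes. *Iigp1* had 740.4, 511, 955 and 696 CPM in CTL 1, CTL 2, LATS1/2-KO 1 and LATS1/2-KO 2, against 62.9, 22.6, 23.4 and 24.0 CPM in luminal cells (log2 difference 4.51 ± 0.40 SE, adjusted p = 0.00018). *Irf1* had 465, 481, 246 and 186 CPM against 70.4, 59.2, 33.1 and 29.6 CPM (log2 difference 2.75, adjusted p = 5.9e-05). Every endothelial value of both genes lay above every luminal value. *Gbp3* and *Gbp7* were higher by 3.41 and 3.41 on the log2 scale, and *Igtp* and *Irgm1*, of the immunity-related GTPases, by 2.99 and 2.38. Of the type I-like members, 9 of 17 were higher, with *Ifit3* (3.06) and *Ifit1* (2.06) among them, and of the class I members 6 of 10, with *Nlrc5* (2.47) and *Tap1* (1.38). The Gbp and immunity-related GTPase families hold near-identical copies, so that reads may be split among them. *Ido1*, with 2 UMIs in all endothelial cells, was not called. When 1 library was left out, 17 to 19 members were called.

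**Figure D4:**
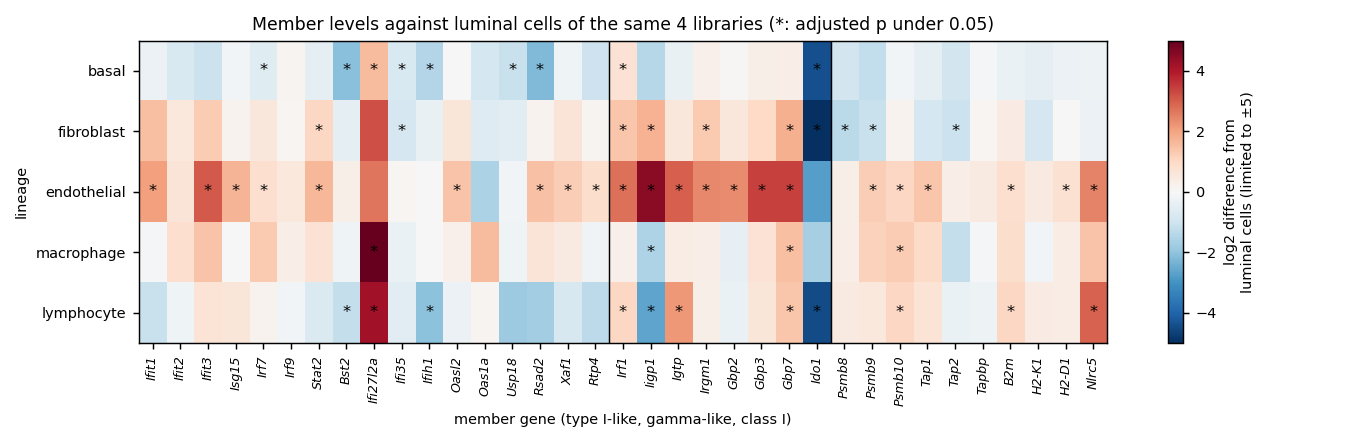
Log2 difference of each member between a lineage and the luminal cells of the same 4 libraries, colours limited to ±5, with an asterisk where the adjusted p was under 0.05. The endothelial row holds 22 asterisks, all on higher values, and *Ifi27l2a* is higher in basal cells, macrophages and lymphocytes.

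*Ifi27l2a* was higher in macrophages and in lymphocytes than in luminal cells, beside further members in each. *Ifi27l2a* had 678, 1569, 595 and 744 CPM in macrophages and 225, 165, 547 and 348 CPM in lymphocytes, against 2.38, 1.31, 85.2 and 153 CPM in luminal cells of CTL 1, CTL 2, LATS1/2-KO 1 and LATS1/2-KO 2 (log2 difference 5.36, adjusted p = 0.002 for macrophages and 4.18, adjusted p = 0.00056 for lymphocytes). In macrophages 3 members were higher and 1 was lower (10.4% and 11.6% of all genes), *Psmb10* (1.28) and *Gbp7* (1.5) being the other members higher and *Iigp1* (-1.56) the member lower. With the LATS1/2-KO libraries alone, which hold 235 and 359 macrophages, 18 were higher and 2 lower, beside 5666 of 13585 genes called in all. This alternative was added after the data were seen, and 1 member was called without either LATS1/2-KO library. The macrophage gate of LATS1/2-KO 2 also held neutrophil markers (4957 summed CPM over 5 genes, against 0 to 47.3 in the other libraries). Lymphocytes had 7 members higher and 4 lower (8.88% and 17.6% of all genes, 26.4% in all). *B2m* had 2103, 2231, 2691 and 1894 CPM against 1274, 1038, 931 and 771 CPM in luminal cells (log2 difference 1.03, adjusted p = 0.0019), above them in every library. *Nlrc5* and *Igtp* were higher (log2 differences 2.95 and 2.17), and *Bst2*, *Ifih1* and *Iigp1* were lower (-1.20, -2.05 and -2.65), as was *Ido1*, with 1 UMI in all lymphocytes. The lymphocyte type I-like sums were 627 and 532 summed CPM in CTL and 1030.2 and 973 in LATS1/2-KO, without overlap. Even so, 0 of 16 members were called in LATS1/2-KO against CTL by edgeR (0.389% of all 2572 genes) or by DESeq2. By the interaction test the effect in lymphocytes differed from that in luminal cells for 1 of 35 members, *Ifi27l2a*, with a more negative effect in lymphocytes (0.00724% of all genes more positive, 0.217% more negative, 0.225% in all). The LATS1/2-KO lymphocytes numbered 16 and 49, and the 12 macrophage markers, 2 of them at 0, had 647 and 1669.7 summed CPM in CTL and 988 and 799 in LATS1/2-KO in the lymphocyte gate. The 12 fibroblast markers, none at 0 in all libraries, had 18.0 and 43.6 summed CPM in CTL and 715 and 837 in LATS1/2-KO in this gate, and the share of free RNA was 3.39% and 5.08% in CTL and 11.7% and 10.3% in LATS1/2-KO. Their part in the lymphocyte sums was not tested.

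Basal cells had 2 members higher and 7 lower than luminal cells (10% and 10.7% of all genes), and fibroblasts 5 higher and 5 lower (14.8% and 15.7%). In basal cells *Bst2* had 34.6, 27.7, 114 and 141 CPM against 196, 227, 358 and 381 CPM in luminal cells of CTL 1, CTL 2, LATS1/2-KO 1 and LATS1/2-KO 2 (log2 difference -2.08, adjusted p = 0.0066), and every basal value lay below every luminal value. The basal count was 2 after free RNA was subtracted, 3 without CTL 1 and 4 without CTL 2, and the fibroblast count was 6 without CTL 1. *Ido1* was lower in both, with 2 UMIs in all basal cells. Fibroblasts had 4 of 8 gamma-like members higher, *Irf1* by 1.38, *Iigp1* by 1.72, *Gbp7* by 1.77 and *Irgm1* by 1.30 on the log2 scale, and 3 of 10 class I members lower, *Psmb8* (-1.34), *Psmb9* (-1.13) and *Tap2* (-1.06). The order of the lineages in the class I sum differed between the groups. In CTL the luminal sums (6484 and 5041 summed CPM) lay above every basal sum (3784 and 2045) and every fibroblast sum (3934 and 2727). In LATS1/2-KO the luminal sums (3914 and 3476) lay below every basal sum (4642 and 4281) and every fibroblast sum (4787 and 5675). The sums of macrophages, lymphocytes and endothelial cells ran from 6021 to 8467 summed CPM over the 4 libraries, above every basal and fibroblast sum, and overlapped among these 3 lineages.

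The number of type I-like members per cell was used to see how widely the response was spread. Every cell was thinned to 2000 UMIs, which left out 64 to 211 shallower luminal cells per library. Cells with at least 3 of the 17 members were counted, with exact (Clopper-Pearson) 95% intervals that cover counting error only. In luminal ER- cells the share was 84 of 2944 cells (2.85%, 95% interval 2.28 to 3.52%) in CTL 1 and 48 of 2177 cells (2.20%, 95% interval 1.63 to 2.91%) in CTL 2. It was 369 of 2128 cells (17.3%, 95% interval 15.8 to 19.0%) in LATS1/2-KO 1 and 489 of 2195 cells (22.3%, 95% interval 20.6 to 24.1%) in LATS1/2-KO 2. The intervals of the CTL and LATS1/2-KO libraries did not overlap. Luminal ER+ cells had 4.95% and 4.52% in CTL and 8.08% and 13.0% in LATS1/2-KO. Basal cells had 0.641% and 1.38% in CTL, from only 1 of 156 and 2 of 145 cells, and 7.26% and 13.7% in LATS1/2-KO. In endothelial cells the share was 43.8% and 30% in CTL and 26.0% and 37.8% in LATS1/2-KO, with overlapping intervals. Macrophages had 28.7% and 27.9% in LATS1/2-KO, and 0 of 4 cells in each CTL library, with exact intervals that reach 60.2%. Without thinning the shares of luminal ER- cells were 34.5%, 36.4%, 64.5% and 70.7%, those of basal cells 4.49%, 9.55%, 30.5% and 36.0%, and those of endothelial cells 62.5%, 58.8%, 48.9% and 55.1%. In ER+ cells, where the thinned share was higher in both LATS1/2-KO libraries, the unthinned share was 66.1% and 78.8% in CTL and 57.5% and 71.7% in LATS1/2-KO, and the groups overlapped. The difference in these shares between the groups was not tested.

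**Figure D5:**
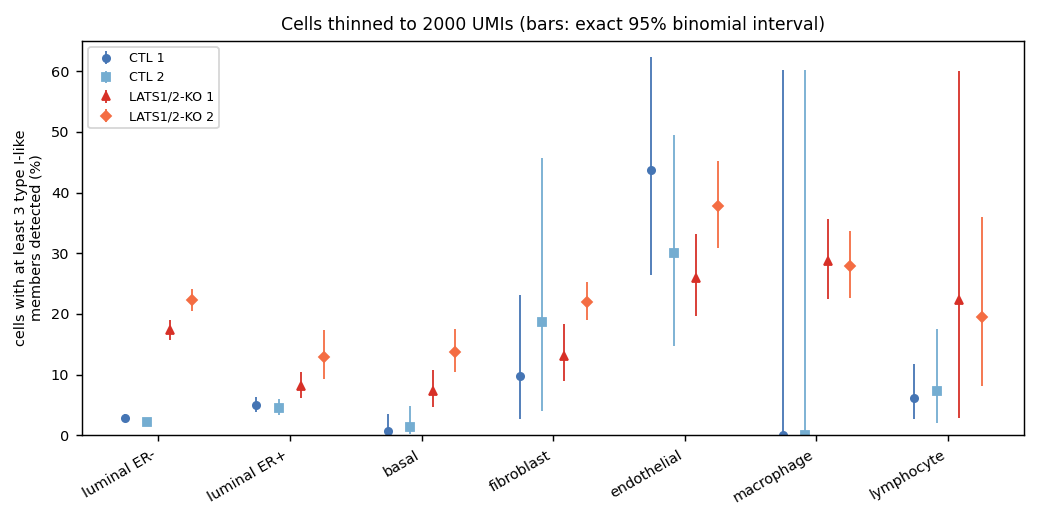
Share of cells (%) with at least 3 type I-like members after thinning to 2000 UMIs, 1 point per library and lineage with its exact 95% binomial interval. In luminal ER- and basal cells both LATS1/2-KO points lie above both CTL points. The basal points of CTL rest on 1 of 156 and 2 of 145 cells, and the macrophage points of CTL on 4 cells each.

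Further genes of the pathway were taken from lists outside the 35. Of 9 interferon ligand genes, 0 had enough counts to be tested in luminal, basal, fibroblast or endothelial cells. In lymphocytes *Ifng* had 325 and 290.4 CPM in CTL and 273 and 289.9 CPM in LATS1/2-KO, from 162, 60, 13 and 45 UMIs, and it was called higher than in luminal cells, which held 6 *Ifng* UMIs in all 4 libraries. The ligand genes summed to 1.88 CPM or less in each library of the other 5 lineages. Of the 20 receptor and signalling genes tested in luminal cells, 5 were higher and 8 lower in LATS1/2-KO (30.8% and 28.6% of all genes, 59.4% in all). *Socs3*, a feedback inhibitor of cytokine receptors, had 151 and 123 CPM in CTL and 45.2 and 38.3 CPM in LATS1/2-KO (log2 fold change -1.93 ± 0.15 SE, adjusted p = 0.00047), and *Irf8* and *Irf2* fell by 1.96 and 0.90 on the log2 scale. In basal cells *Socs3* fell by 2.15, and *Tmem173*, which encodes the DNA-sensing adaptor STING, rose by 2.50.

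Of 30 further interferon-induced genes tested in luminal cells, 13 were higher and 6 lower (30.8% and 28.6% of all genes). Their median log2 fold change was 0.34. *Oasl1* and *Oas3* rose by 3.01 and 3.25, and *Ifi203* fell by 2.37 on the log2 scale, whereas in basal cells *Ifi203* rose by 3.62. Of 14 further class I genes, 11 were lower and none higher in luminal cells (28.6% and 30.8% of all genes), with a median of -0.98. *H2-T23*, a nonclassical heavy chain, had 289 and 250.4 CPM in CTL and 134 and 145 CPM in LATS1/2-KO (log2 fold change -1.16 ± 0.10 SE, adjusted p = 0.00065), *H2-M3* fell by 1.23, and *Calr*, a chaperone of the loading complex, by 1.04. In endothelial cells *Cxcl9* and *Cxcl10*, chemokines that draw T cells, rose. *Cxcl9* had 80.7 and 5.11 CPM in CTL and 724 and 425 CPM in LATS1/2-KO (log2 fold change 3.76 ± 0.56 SE, adjusted p = 0.0016). *Cxcl10* had 351 and 143 CPM in CTL and 817 and 545 CPM in LATS1/2-KO (log2 fold change 1.51 ± 0.36 SE, adjusted p = 0.023). The LATS1/2-KO values of *Cxcl9* and *Cxcl10* lay above both CTL values, and the CTL values themselves differed from each other by more than 2-fold. Against luminal cells, *Gbp4*, *Gbp5* and *Gbp9* were higher in endothelial cells by 7.92, 7.83 and 5.84 on the log2 scale, the first pair from at most 20 UMIs per library in luminal cells. Of the 13 members with the response element core before their start, 7 were higher, 1 was lower and 5 were not called in luminal cells. Of the 15 with a start and no match, 5 were higher, 9 lower and 1 not called. Of all genes tested there, 30.8% were higher and 28.6% lower.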

How the data were processed

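Raw UMI counts per gene and cell were deposited by the authors as 10x matrices for 4 libraries, aligned to mm10 with Cell Ranger (6.1.2 per the file headers, 3.1.0 in the submitters' processing notes). Barcodes were kept above 500 detected genes and below a mitochondrial share of 20%, with no doublet caller, and were assigned to a lineage when at least 3 of its markers were detected, its scaled marker score (99th percentile of cells) reached 0.3 and it exceeded the next lineage by 1.2-fold. A stricter gate required 5 markers, 0.4 and 2-fold. These limits were set after the cells had been seen, and no deposited annotation of cells was used here. ER+ cells were luminal cells with at least 2 ER+ markers and ER- cells those with at least 3 ER- markers, by whichever score was higher. Counts were summed per library and lineage with at least 10 cells, expressed as counts per 1000000 (CPM), and tested over all genes with edgeR (4.0.16, R 4.3.3), using TMM scaling, filterByExpr, quasi-likelihood tests and Benjamini-Hochberg adjustment at 0.05. The library was a block for comparisons between lineages, and the mouse for EYFP+ against EYFP- cells. For macrophages the CTL libraries, with under 10 cells, entered only the comparison with luminal cells. DESeq2 (1.42.0) was an alternative, beside RLE size factors, no low-count filter, a mitochondrial limit of 10%, the stricter gate, subtraction of free RNA, no block and the omission of each library. The scripts were run on simulated counts. Outside the luminal and EYFP comparisons most 2-fold changes were missed there. Most 4-fold changes were missed as well for LATS1/2-KO against CTL in fibroblasts and for macrophages against luminal cells. The endothelial interaction missed all the 4-fold changes. In most comparisons the share of false calls lay above the threshold. A member that was not called is therefore not shown to be unchanged.

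The members and gene lists were chosen with earlier results of these data known, so no pattern here is independent support for them. The rule for named genes allowed every member, with values in full for members called or among the 8 with the highest mean CPM of their list, and up to 3 called genes with the lowest adjusted p per other list. Free RNA was estimated as the median, over 3 collagen genes in epithelial lineages or 6 luminal genes in other lineages, of the ratio between the lineage and all kept cells of the library. Since free RNA was taken from kept cells, it was an upper estimate that counts misassigned cells and low own expression of the genes. Counting used Python 3.11.15 with numpy 2.4.6, scipy 1.17.1 and pandas 2.3.3. Promoter sequences were RefSeq's (GRCm38.p6), and positions came from GENCODE (GRCm38). Replicate numbers were not used to pair the mice in the main fits.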

Additional observations from a re-analysis of the deposited data

Results flagged for a closer look

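The effect of LATS1/2-KO differed between basal and luminal cells for 14 members by the interaction test of edgeR with Benjamini-Hochberg adjustment over all genes (log2 effect in basal minus that in luminal cells). The difference was positive for 8 class I members, at 2.12 for *B2m*, 1.98 for *Psmb9*, 1.64 for *Psmb8*, 1.54 for *H2-K1*, 1.46 for *Tap2*, 1.29 for *H2-D1*, 1.27 for *Psmb10* and 0.66 for *Tapbp*. It was also positive for *Stat2* (2.12), *Iigp1* (2.06) and *Bst2* (1.52), and negative for *Ifit2* (-2.79), *Igtp* (-1.80) and *Isg15* (-1.23). The free RNA in CTL basal cells was estimated at 31.5% and 40.1% from collagen genes and at 9.81% and 7.52% from luminal genes, and its part in these differences was not tested.

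In fibroblasts the effect minus that in luminal cells was 1.89 for *B2m*, 2.10 for *H2-K1*, -2.41 for *Isg15* and -5.22 for *Ifi27l2a*. In endothelial cells it was 1.15 for *H2-K1*, 1.19 for *Psmb8*, 1.34 for *Tap2*, -1.76 for *Isg15*, -2.41 for *Ifit1* and -5.94 for *Ifi27l2a*. In lymphocytes it was -4.92 for *Ifi27l2a*, which already had 225 and 165 CPM in CTL lymphocytes.

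Cells of the perivascular gate (21 and 5 in CTL, 53 and 73 in LATS1/2-KO) entered no comparison. In CTL the cells of this gate held more of the 10 basal markers (10670 and 17893 summed CPM) than of the 9 perivascular markers (2794 and 1619), against 3041 and 6013 beside 2675 and 2896 in LATS1/2-KO, and the free RNA share of CTL 2 was 31.9%. Both LATS1/2-KO libraries thus also held more basal than perivascular marker CPM, and the values of neither group are ascribed here to perivascular cells. Which cells the gate held was not tested. The type I-like members of this gate had 614 and 216 summed CPM in CTL and 703 and 933 in LATS1/2-KO (mean 818), and the class I members 2179.6 and 1403 in CTL and 3769 and 2364 in LATS1/2-KO (mean 3067). The LATS1/2-KO means were above the CTL values. The difference, and the part of the basal markers in it, was not tested.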

How the results depend on the processing

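Of 127 recomputed counts of called members, 95 stayed within 1.5 times the count reported, and of 4024 recomputed values of single members, 3690 kept their direction and their side of the threshold, 253 lost the call, 77 gained one and 4 reversed. Leaving out 1 library gave 22 to 28 called members in luminal cells, 8 to 19 in basal cells, 0 to 6 in fibroblasts, 2 to 5 in endothelial cells and 0 in lymphocytes. Against luminal cells it gave 3 to 7 for basal cells, 6 to 8 for fibroblasts, 17 to 19 for endothelial cells, 1 to 5 for macrophages and 8 to 10 for lymphocytes. With DESeq2 the count was 8 in basal cells, 3 in endothelial cells and 8 for EYFP+ against EYFP- cells. Without a filter on low counts it was 0 in fibroblasts, 0 in endothelial cells and 10 for EYFP+ cells, when more genes were tested. In fibroblasts it was also 0 with the mitochondrial limit of 10% and with the stricter gate, which gave 1 in lymphocytes. After subtraction of free RNA it was 11 in basal cells and 2 for basal against luminal cells. Without the library block it was 2 for basal, 6 for fibroblasts, 7 for macrophages and 6 for lymphocytes against luminal cells, and 9 and 2 for the basal and lymphocyte interactions. For macrophages it was 20 in the LATS1/2-KO libraries alone. For EYFP+ cells it was 6 after thinning and 2 without the mouse block. Where no construction of the setting shows it, the cause was not tested.

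The direction reversed for *Bst2* in ER+ cells alone (log2 fold change -0.049), *Psmb9* in basal cells after subtraction of free RNA (7.23), *H2-K1* for macrophages in the LATS1/2-KO libraries alone (0.66) and *Usp18* for EYFP+ cells after thinning (-0.040). The subtraction set counts below the free RNA level to 0, at shares of 31.5% and 40.1% in CTL basal cells. The size of the *Psmb9* value depends on that step.

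The replicate block gave 27 called members in luminal, 18 in basal, 0 in fibroblasts, 5 in endothelial cells and 0 in lymphocytes. Deviations of libraries with the same number correlated at -0.080 to 0.096. With 2 pairs this cannot show whether libraries of the same number shared a batch, and none is labelled.

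Over all genes, the count called was 3083 in basal cells and 1413 with DESeq2. In fibroblasts it was 235, and 86 without the filter, 156 with the mitochondrial limit of 10% and 0 with the replicate block. In endothelial cells it was 548, and 250 with DESeq2, 0 without the filter and 286 with the replicate block. In lymphocytes it was 10, and 17 with DESeq2, 0 without the filter, 32 with the replicate block, 24 with the stricter gate and 6 after subtraction of free RNA. In luminal cells it was 8625, and 5285 in ER+ cells alone. Against luminal cells it was 2956 for basal cells, and 1904 without the block and 1463 after subtraction, and 3120 for macrophages, and 5666 in the LATS1/2-KO libraries alone. For EYFP+ cells it was 5215, and 1305 after thinning, 959 without the block and 2054 with DESeq2. Without the block the interactions called 790 against 370 genes (fibroblast), 1056 against 662 (endothelial) and 78 against 31 (lymphocyte). RLE scaling moved the median of all genes from -0.28 to -0.40 for macrophages and from -0.54 to -0.41 for lymphocytes against luminal cells, from 0.12 to 0.02 for the basal and from 0.33 to 0.22 for the endothelial interaction. Of 24 shares of cells with type I-like members, 18 moved beyond their interval without thinning and 19 with at least 2 members. The 6 and 4 CTL macrophages and the 16 lymphocytes of LATS1/2-KO 1 limit what could be detected there.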
